A study of Mus musculus with 36 samples.

Results

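Ube2a and C330007P06Rik are adjacent genes of the mouse X chromosome, and almost all of their allele-assigned reads were assigned to the X chromosome that carries inducible Xist. They were chosen by their ratio Xi/(Xi+Xa), the fraction of a gene's allele-assigned reads that came from the inactive X chromosome (Xi) rather than the active X (Xa). They are 2 of the 252 genes listed in the tables, which hold 249 and 242 genes with 239 in common. Since the ratio selected the pair, its ratios are a description and carry no test. The 7 genes that start within 1 Mb of either of them were taken by position and are compared across stages and lines.

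The data are ChrRNA-seq, sequencing of RNA that stays bound to chromatin and is therefore rich in nascent transcripts, from 36 libraries of 8 lines of XX mouse embryonic stem cells (mESCs). Every line carried a Cast and a 129S X chromosome, and on the 129S X the promoter of the endogenous Xist gene had been exchanged for a TetOn promoter. Doxycycline (dox) at 1 µg/ml therefore turns on Xist from the 129S X, which becomes the Xi, while the Cast X is the Xa. In uninduced libraries Xist had not been turned on, and there Xi and Xa only name the 129S and Cast alleles. Libraries were made from uninduced mESCs (6 lines, 1 library each), from mESCs given dox for 24 h (the same 6 lines, 1 library each), and from monolayer differentiation with dox at day 5 (6 libraries of 3 lines) and at day 7 (18 libraries of 8 lines).

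iXist-ChrX is the parental line, and SMCHD1 KO lacks SMCHD1 in that background. Both were taken only at day 7, with 2 libraries each. Halo-SMCHD1 (clone G2) is iXist-ChrX with a Halo tag on the N terminus of SMCHD1, and had 3 libraries at day 7 and 2 at day 5. According to the paper, this line was also given a transgene for eGFP-CIZ1, a fluorescent Xist-binding protein that marks the Xi. The sample titles do not mention the transgene. LRIF1 KO and the SMCHD1 point mutants E147A, Y353C, G137E and K518E were made in Halo-SMCHD1. Each of these 5 lines therefore carries the tag as well and, by the paper's account, the transgene. G137E had 3 libraries at day 7, the other 4 had 2, and G137E and K518E had 2 at day 5. Each line is 1 clone, and all descend from 1 parental line, so lines used as replicates share that origin.

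In female mammals, Xist RNA coats the X chromosome that makes it and most genes on that chromosome fall silent, a process called X chromosome inactivation (XCI). SMCHD1 is a chromatin protein that helps to keep genes on the Xi silent, and LRIF1 is its binding partner. Ube2a encodes an E2 ubiquitin-conjugating enzyme, the mammalian counterpart of yeast Rad6, which works in DNA damage tolerance and in ubiquitination of histone H2B. C330007P06Rik is the mouse counterpart of human STEEP1 (CXorf56), whose product helps the innate immune adaptor STING to leave the endoplasmic reticulum.

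The pair lies head to head. In the deposited tables (mm10) C330007P06Rik spans bases 36848543 to 36864246 of chromosome X on the minus strand, and Ube2a spans bases 36874365 to 36884220 on the plus strand. Their starts are 10.1 kb apart and the counted intervals share 0 bases. GENCODE vM21, an annotation of the same assembly, extends both genes into that gap. There C330007P06Rik (ENSMUSG00000006423.15) runs from 36823737 to 36874111 and Ube2a (ENSMUSG00000016308.12) from 36873900 to 36884222. In that annotation they overlap by 212 bases on opposite strands, and the counting was strand-specific. Exons of GENCODE transcripts make up 37.6% of the counted interval of C330007P06Rik and 21.0% of that of Ube2a. The rest is intron, which ChrRNA-seq also reads.

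The promoters are shown because the pair is divergent and shares its ratio. Each line gives the 250 bases before the RefSeq start (GRCm38.p6), 5′ to 3′ on the gene's own strand, with CpG dinucleotides in capitals. The reference strain is neither of the 2 parental strains of these cells. The window of Ube2a is chrX:36874045-36874294 on the plus strand and that of C330007P06Rik is chrX:36864247-36864496 on the minus strand. Each window lies inside the GENCODE body of its own gene. The GENCODE start of C330007P06Rik, base 36874111, falls within the window of Ube2a. Only 1 of its 6 GENCODE transcripts has the counted interval, so its window stands for 1 of several annotated starts.
Ube2a: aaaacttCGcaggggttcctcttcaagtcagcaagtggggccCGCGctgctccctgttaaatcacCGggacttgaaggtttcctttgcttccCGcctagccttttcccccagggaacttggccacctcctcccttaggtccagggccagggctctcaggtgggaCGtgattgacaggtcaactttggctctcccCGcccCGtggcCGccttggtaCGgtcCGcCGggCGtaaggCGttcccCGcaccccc
C330007P06Rik: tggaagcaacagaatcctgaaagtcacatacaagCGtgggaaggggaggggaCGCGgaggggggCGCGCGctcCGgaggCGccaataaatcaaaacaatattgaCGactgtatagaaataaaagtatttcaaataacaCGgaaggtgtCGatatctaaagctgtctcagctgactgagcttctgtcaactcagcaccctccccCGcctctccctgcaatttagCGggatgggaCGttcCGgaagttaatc
Both windows hold 15 CpG dinucleotides, against a median of 6 over 32841 mouse promoter windows of the same length, of which 27.3% hold at least as many. GC content was 62.8% for Ube2a and 50.8% for C330007P06Rik, with a median of 52.4% over all windows. Short promoter motifs were searched on both strands. Ube2a held 1 GC box (GGGCGG, found in 32.7% of windows) and C330007P06Rik held 1 CCAAT box (CCAAT, 33.9%). Neither window held TATAAA, present in 12.4% of windows, or CACGTG, present in 6.02%. These letters describe the windows only.

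Ube2a stood at a ratio of exactly 1 in 35 of 36 libraries. The exception was the uninduced LRIF1 KO library, at 0.985. Before induction Ube2a was at 1 in Halo-SMCHD1, E147A, Y353C, G137E and K518E, so no read of the Xa allele was counted for it in these 5 libraries before Xist was turned on. With dox for 24 h, at day 5 and at day 7 Ube2a was at 1 in every library, 30 in all from the 8 lines. Over the 6 uninduced libraries the mean ratio of Ube2a was 0.997 ± 0.00619 (SD, n = 6).

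C330007P06Rik lay between 0.996 and 1 in all 36 libraries and was exactly 1 in 22 of them. Before induction its ratio was 1 in Halo-SMCHD1, 0.999 in LRIF1 KO, E147A and G137E, 0.998 in Y353C and 0.997 in K518E. With dox for 24 h it was 1 in Halo-SMCHD1 and G137E, 0.999 in Y353C, 0.998 in K518E, and 0.997 in E147A and LRIF1 KO. Both early stages therefore span the same narrow range.

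During differentiation C330007P06Rik was at 1 in both Halo-SMCHD1 and both G137E libraries of day 5 and at 0.998 in both K518E libraries. At day 7 it was at 1 in 15 of 18 libraries. The other 3 were a Halo-SMCHD1 library at 0.996, a Y353C library at 0.997 and a K518E library at 0.998. Its mean was 0.999 ± 0.000952 (SD, n = 6) before induction and 1.00 ± 0.00116 (SD, n = 18) at day 7. Reads of the Xa allele were thus counted for C330007P06Rik in 14 libraries, and for Ube2a in 1.

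**Figure D1:**
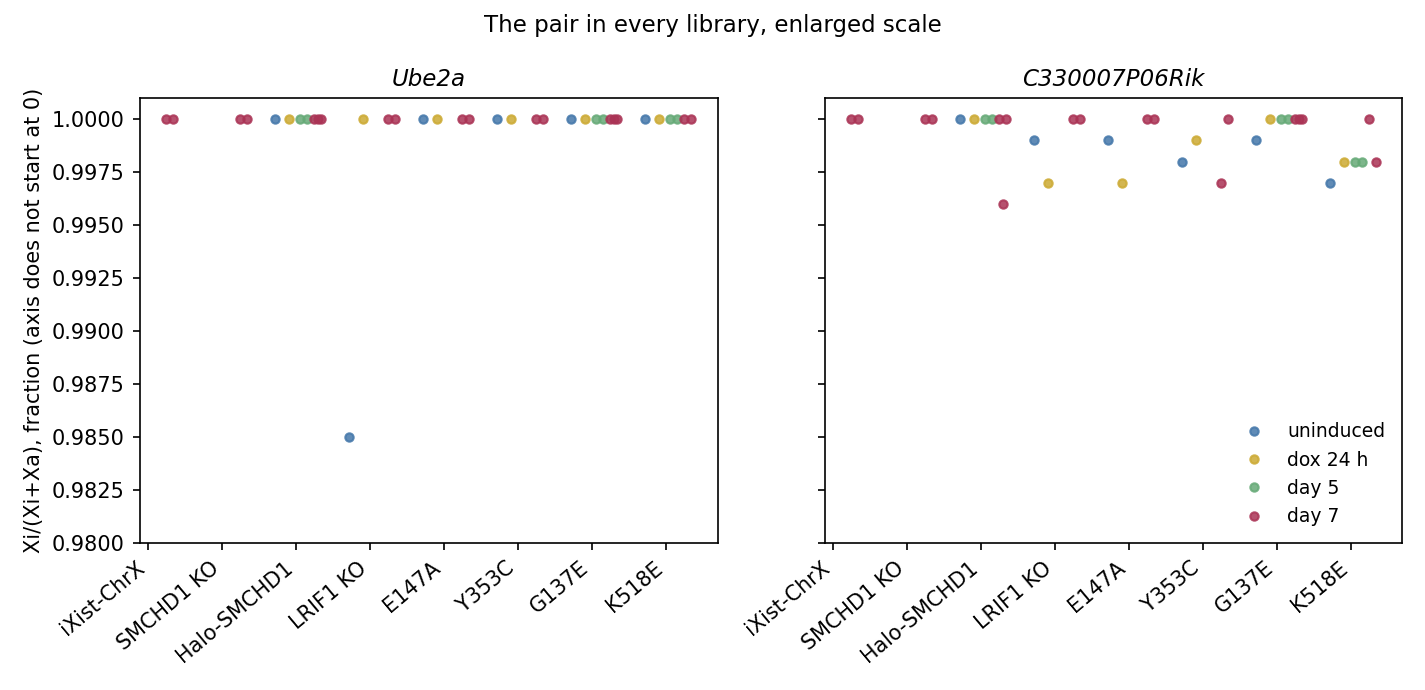
The ratio Xi/(Xi+Xa) of Ube2a (left) and C330007P06Rik (right) in each of the 36 libraries, by line and coloured by stage, on an enlarged vertical axis that does not start at 0. All Ube2a points lie at 1 except uninduced LRIF1 KO at 0.985, and all C330007P06Rik points lie between 0.996 and 1.

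Across lines the pair stayed within the same narrow range. SMCHD1 KO and its parent iXist-ChrX were at 1 for both genes in both day 7 libraries each, and so were LRIF1 KO and E147A. In K518E, C330007P06Rik was below 1 in 5 of 6 libraries, never under 0.997. It was below 1 in 3 of 4 libraries of Y353C and in 2 of 4 each of E147A and LRIF1 KO. In Halo-SMCHD1 and G137E it was below 1 in 1 of 7 each, and in SMCHD1 KO and iXist-ChrX in 0 of 2 each. Depth is unknown, so these counts are not read as traits of the lines. Both genes were exactly 1 together in 22 of 36 libraries. In the 14 libraries that both tables hold, the values of both genes were identical between the tables.

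The rest of the X behaved otherwise. Before induction 238 of 249 genes had a mean ratio between 0.25 and 0.75, 8 were above and 3 below. The median over all genes in a library was 0.514 to 0.524 in the 6 uninduced libraries, 0.212 to 0.276 with dox for 24 h, 0.0371 to 0.0758 at day 5 and 0.0195 to 0.101 at day 7. Ube2a and C330007P06Rik were the only 2 genes in the tables above 0.9 in every library, and the only 2 with any library at exactly 1.

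The genes nearest to the pair in ratio were read from the mean absolute difference over the 30 libraries of the larger table. Ube2a and C330007P06Rik differed from each other by 0.00111 on average. Xist, the RNA made by the Xi itself, came next at 0.0117 from Ube2a and 0.0119 from C330007P06Rik, then Dynlt3, a dynein light chain gene, at 0.186 from either. Pnma5 followed at 0.522, so no further gene came near.

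Xist is set apart from the pair by its change with dox. Its ratio was 0.881 to 0.995 in the uninduced libraries and 0.997 to 0.999 in those with dox for 24 h, above 0.9 in 35 of 36 libraries in all. Dynlt3 went from a mean of 0.892 ± 0.0165 (SD, n = 6) before induction to 0.783 ± 0.0502 (SD, n = 18) at day 7. Il1rapl1, which encodes a synaptic adhesion protein, started as high as 0.966 ± 0.0118 (SD, n = 6) and stood at 0.149 ± 0.0866 (SD, n = 18) at day 7. A start near 1 was thus found in other genes, but only 4 genes, the pair, Xist and Dynlt3, had a day 7 mean above 0.5. At the opposite end, and named after its values were seen, Frmd7 had a mean of 0.00768 ± 0.00716 (SD, n = 6) before induction, with almost all reads from the Xa.

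**Figure D2:**
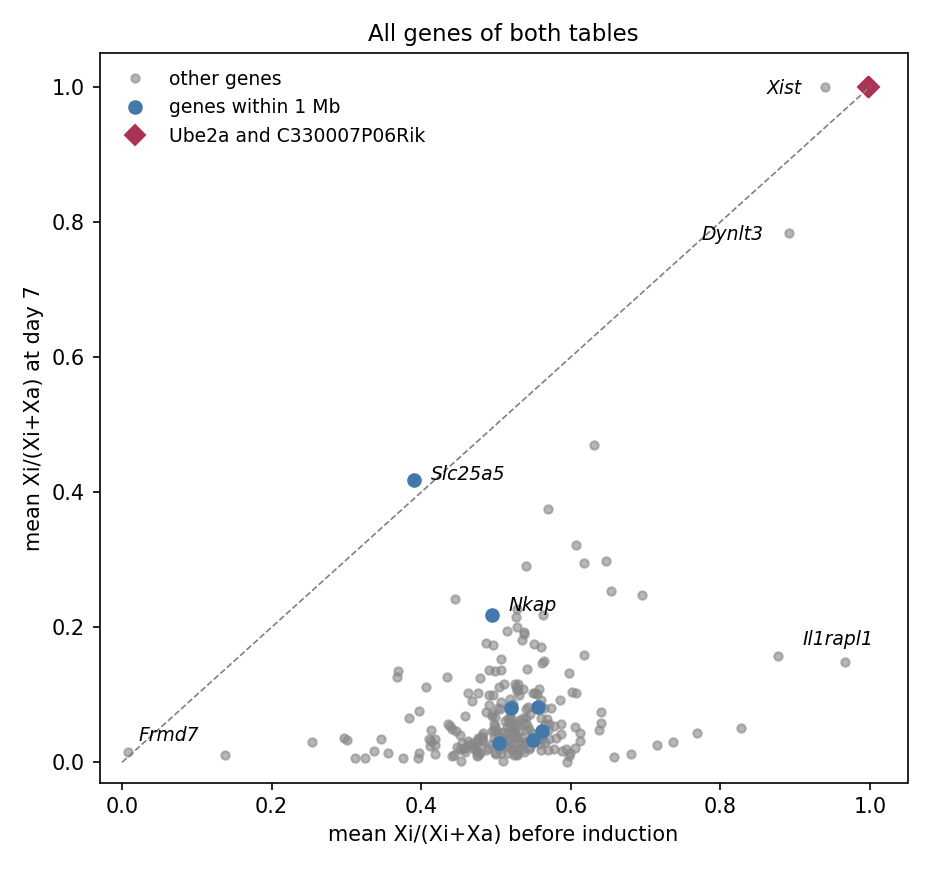
Mean Xi/(Xi+Xa) of each gene before induction (horizontal axis, fraction) against its mean at day 7 (vertical axis, fraction), with the dashed line marking equal means. Ube2a and C330007P06Rik coincide at the top right corner, Slc25a5 lies near the line at 0.39 and 0.418, and most other genes lie near the bottom.

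Of the 7 genes within 1 Mb, 6 started near balance, with uninduced means of 0.494 to 0.562, and Slc25a5 was lower at 0.39. Counted from the start of Ube2a, those on the side of C330007P06Rik start at -986 kb (Dock11), -762 kb (Il13ra1), -276 kb (Pgrmc1), -229 kb (Akap17b) and -78.7 kb (Slc25a5). Beyond Ube2a lie Upf3b at 236 kb and Nkap at 252 kb. Il13ra1 is absent from the smaller table, which alone holds K518E. The median ratio of these genes in a library was 0.511 ± 0.018 (SD, n = 6) before induction and 0.317 ± 0.0287 (n = 6) with dox for 24 h. It was 0.0915 ± 0.0162 (n = 6) at day 5 and 0.0783 ± 0.0271 (n = 18) at day 7, and the mean over the same genes in place of the median was 0.155 and 0.131. The ratio near 1 thus covered the pair and not the measured genes on either side of it. GENCODE lists Nkrf, Sept6, Sowahd and Rpl39 between Ube2a and Upf3b. They are not analysed here, so how far the pattern runs within the 208 kb between the bodies of Ube2a and Upf3b was not measured.

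**Figure D3:**
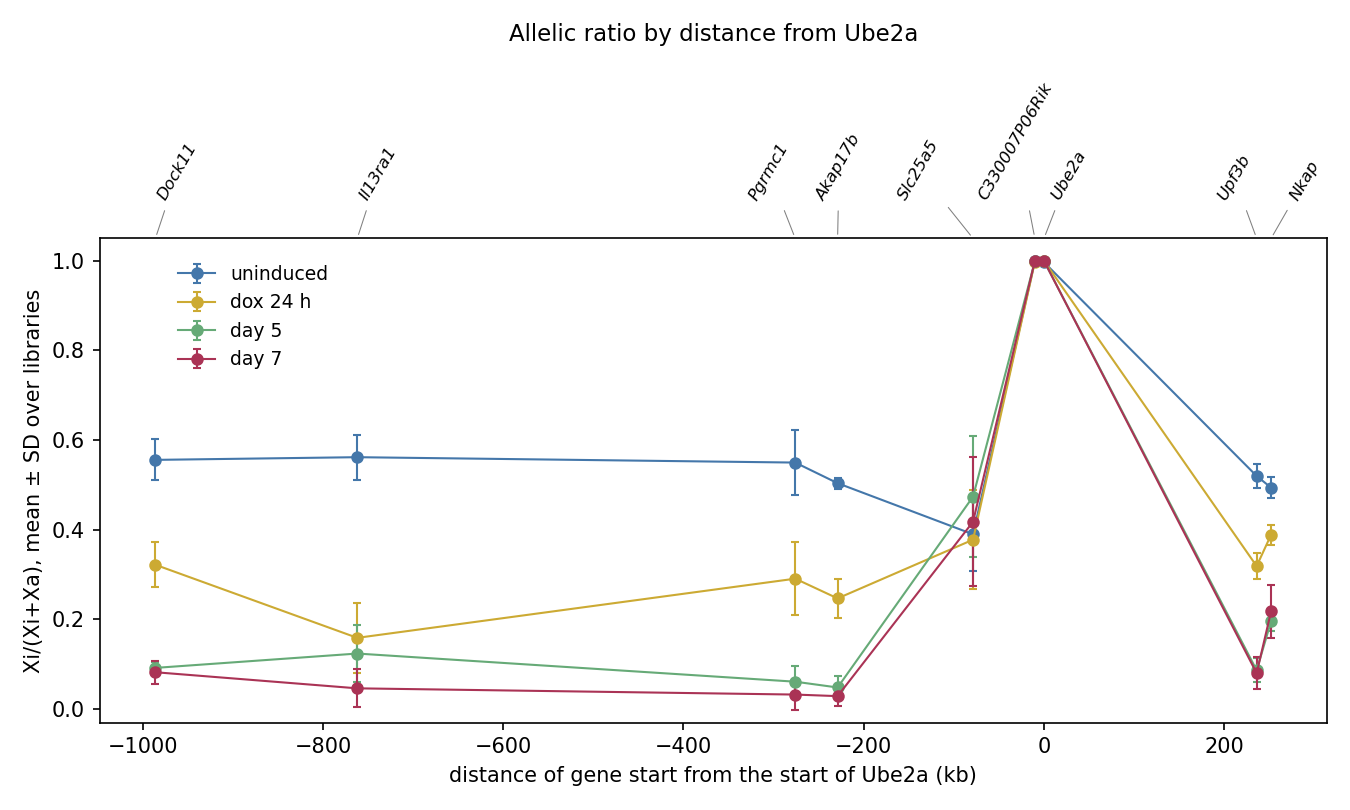
Mean Xi/(Xi+Xa) (vertical axis, ± SD over libraries) of the pair and the genes within 1 Mb against the distance of each gene's start from the start of Ube2a in kb, with 1 coloured line per stage joining measured genes. The pair stays at 1 at every stage, and the genes at -229 kb and 236 kb have day 7 means of 0.029 and 0.0801.

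Between uninduced cells and dox for 24 h, 6 of the 7 neighbours fell. The test was limma on the log2 odds of Xi, log2((r + 0.01)/(1 − r + 0.01)) for a ratio r, paired by line over 5 lines and adjusted by Benjamini-Hochberg over 249 genes. Of all genes, 96% were called at an adjusted p under 0.05, so these calls do not set the neighbours apart. The median change in log2 odds was -1.34 for the neighbours and -1.57 for all genes.

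Akap17b, which encodes a protein kinase A anchoring protein, was at 0.504 ± 0.0126 (SD, n = 6) before induction and 0.247 ± 0.0427 (n = 6) with dox. Its change in log2 odds was -1.52 ± 0.11 (SE; limma adjusted p = 2.02e-05). Upf3b, a gene of nonsense-mediated mRNA decay, went from 0.52 ± 0.0266 to 0.319 ± 0.0285, with a change of -1.16 ± 0.121 (SE; limma adjusted p = 0.000108). Nkap, a transcriptional repressor gene, fell less, from 0.494 ± 0.0229 to 0.389 ± 0.0227, by 0.56 on the log2 odds scale (SE 0.108; limma adjusted p = 0.00236). In each of the 6 genes that fell the uninduced and dox libraries did not overlap. Overlap was not counted over all genes, so its absence does not set these neighbours apart.

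From dox for 24 h to day 7 the same 6 neighbours fell further, while 95.6% of all genes were called. Both steps share the dox libraries. The median change in log2 odds was -2.30 for the neighbours and -2.48 for all genes. Akap17b reached 0.029 ± 0.0216 (SD, n = 18), Pgrmc1, which encodes a haem-binding membrane protein, 0.0325 ± 0.0348 (n = 18), and Il13ra1, an interleukin 13 receptor gene, 0.0464 ± 0.0424 (n = 16). Upf3b stood at 0.0801 ± 0.0363 (n = 18) and Dock11, a guanine nucleotide exchange factor gene, at 0.0823 ± 0.0254 (n = 18).

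Nkap kept a higher ratio, 0.218 ± 0.0587 (SD, n = 18), and had the 14th highest day 7 mean among the 250 genes other than the pair. It lies 252 kb from Ube2a, beyond Upf3b. Upf3b, which starts nearer to Ube2a on that side, had the lower day 7 mean of these 2 genes, and their day 7 ranges, 0.0208 to 0.135 in Upf3b and 0.131 to 0.356 in Nkap, overlapped only at their ends.

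**Figure D4:**
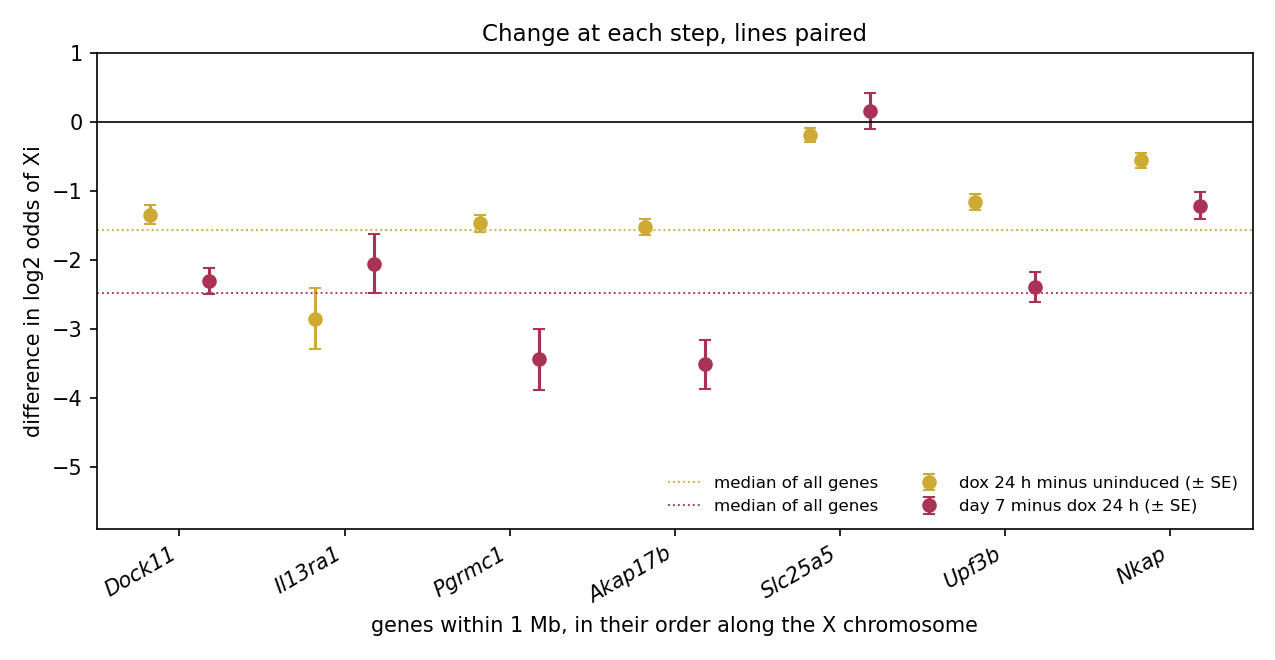
Change in the log2 odds of Xi (vertical axis, ± SE from limma over 5 lines) of the 7 genes within 1 Mb at the step from uninduced to dox for 24 h and at the step from dox for 24 h to day 7, with dotted lines at the medians of all genes. Slc25a5 lies at -0.19 and 0.16, and the other 6 genes lie below 0 at both steps.

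Slc25a5, the nearest measured neighbour, did not pass the test at either step. It encodes the mitochondrial ADP/ATP carrier ANT2, and its end lies 49.7 kb from C330007P06Rik. Its ratio was 0.478 in Halo-SMCHD1, 0.408 in E147A, 0.346 in LRIF1 KO, 0.332 in Y353C, 0.29 in G137E and 0.487 in K518E before induction. With dox for 24 h it was 0.43, 0.356, 0.37, 0.268, 0.277 and 0.569 in the same lines, lower than before in 4 of 6. The ranges overlapped.

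The change of Slc25a5 with dox was -0.19 ± 0.106 in log2 odds (SE; limma adjusted p = 0.126), and without LRIF1 KO it was -0.275 (limma adjusted p = 0.037). From dox to day 7 it was 0.16 ± 0.261 (SE; limma adjusted p = 0.567). The Slc25a5 mean was 0.474 ± 0.135 (SD, n = 6) at day 5 and 0.418 ± 0.144 (n = 18) at day 7, the 4th highest day 7 mean among the 250 genes other than the pair. Leaving the pair aside, Slc25a5 was the only gene of 247 in the larger table called at neither step. Slc25a5, C330007P06Rik and Ube2a are consecutive genes of the table. The pair was chosen by its ratio, so its own lack of a call is no result and this order was not tested.

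Slc25a5 also varied more between libraries than most genes. At day 7 it ranged from 0.182 to 0.633, and both of these extremes were E147A libraries. Its SD over the 18 libraries was the 2nd largest of the 250 genes, whose median SD was 0.0288. The SD of a fraction depends on its level, and most genes were near 0 at day 7. Library medians over all genes were 0.0195 to 0.101, against a mean of 0.418 in Slc25a5. The rank is therefore not a comparison at equal level, and depth is unknown. Libraries of some lines stood close together, at 0.454 and 0.459 in Y353C, 0.529 and 0.534 in SMCHD1 KO and 0.499 and 0.506 in K518E.

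**Figure D5:**
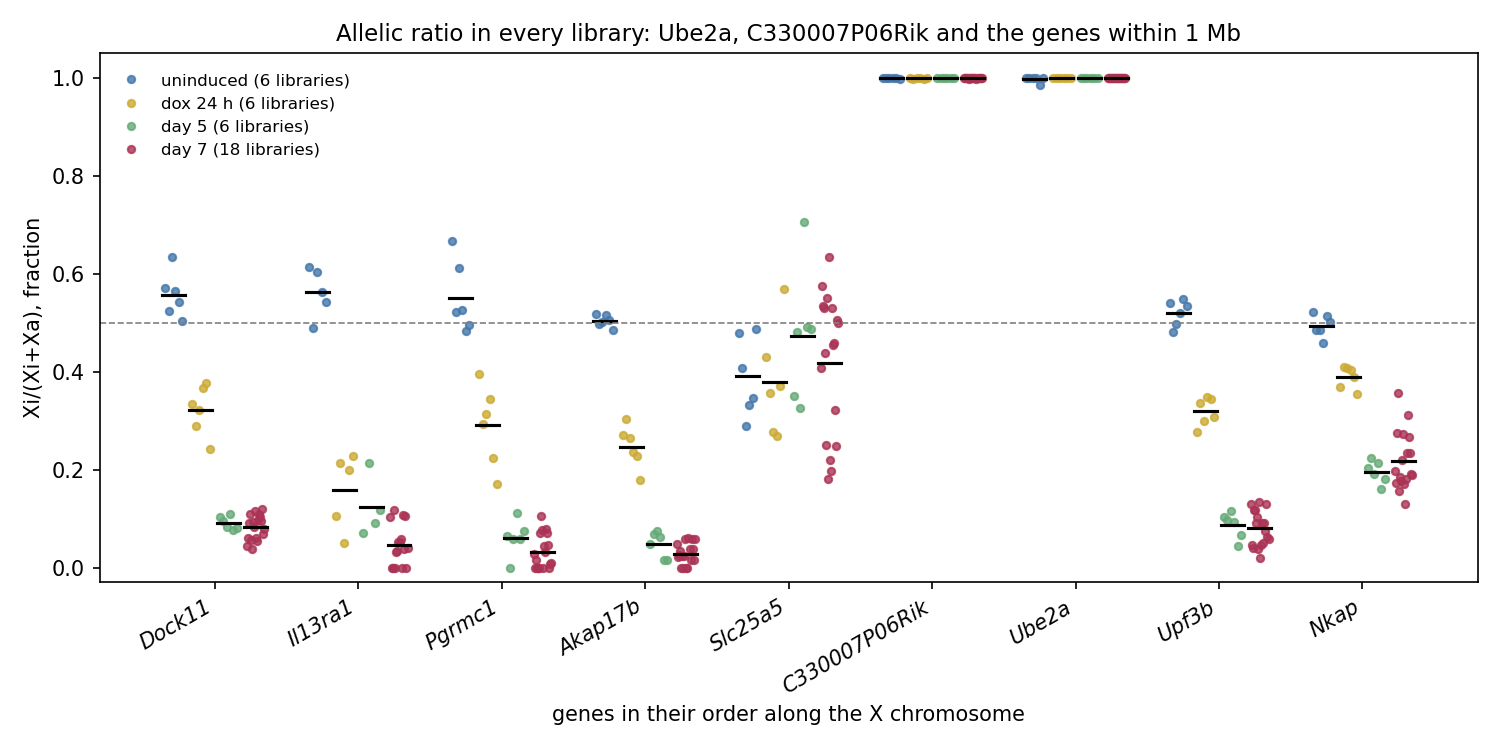
The ratio Xi/(Xi+Xa) (vertical axis, fraction) in every library for the pair and the 7 genes within 1 Mb, in chromosomal order, coloured by stage, with black bars at the means and a dashed line at 0.5. The pair lies at or just under 1 at all stages, Slc25a5 is spread between 0.182 and 0.705, and the other 6 genes move down from near 0.5.

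Copies of the transcripts elsewhere in the genome were counted, since reads were kept only where they aligned to 1 place. Each gene's longest protein-coding GENCODE transcript was compared with the transcripts of all other genes, and matches of at least 81 bases (the read length) at 95% identity or more were kept. For Ube2a 0% of the 1732-base transcript matched another gene. For C330007P06Rik 21.2% of a 3467-base transcript did, and the best match was the processed pseudogene Gm8181, at 99.7% identity over 666 bases. For Slc25a5 72.3% of a 1240-base transcript did, with matches in 3 processed pseudogenes. Among them were Gm5560 at 98.3% identity over 887 bases and Gm5529 at 96.8% over 900 bases. The other 6 neighbours had 0%. Only annotated transcripts were compared, so introns and unannotated copies were not covered for any of these genes. The part of copies, of allele assignment and of the 2 parental sequences in the ratio of the pair was not tested.

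Other X-linked genes of the same functions were read from lists. Of 23 X-linked genes of the ubiquitin system, 9 besides Ube2a were in the larger table, and all 9 fell at both steps, with 96% and 95.6% of all genes called. Uba1, the E1 enzyme that hands ubiquitin to E2 enzymes such as UBE2A, went from 0.529 ± 0.0129 (SD, n = 6) to 0.109 ± 0.0285 (n = 18) at day 7. Cul4b, a ubiquitin ligase scaffold gene, went from 0.494 ± 0.0339 to 0.0688 ± 0.0447, and the deubiquitinase gene Usp9x from 0.512 ± 0.00652 to 0.0619 ± 0.0207. Their day 7 means ran from 0.0214 in Klhl15 to 0.135 in Otud5.

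Of 8 X-linked innate signalling genes 3 were in the table, Ikbkg, Irak1 and Tab3, and all 3 fell at both steps to day 7 means of 0.0377 to 0.0655. Of 9 genes known to escape XCI in mouse, 4 were in the table, and these also fell at both steps. Of all genes, 96% and 95.6% were called at these steps, so the falls do not set either list apart. Their day 7 means were 0.291 ± 0.0399 in Kdm6a, 0.253 ± 0.0416 in Utp14a, 0.242 ± 0.0279 in Eif2s3x and 0.173 ± 0.042 in Ddx3x (SD, n = 18). None of the 16 genes of the 3 lists was above 0.663 in any library.

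Loss or mutation of SMCHD1 and loss of LRIF1 were compared at the neighbours, and 0 of 52 tests of a neighbour in 1 of 8 contrasts passed. The test was limma on the log2 odds over the libraries of a table. At an unadjusted p under 0.05 there were 9, and the lowest limma adjusted p was 0.0984. Of 249 genes, 34 in SMCHD1 KO, 28 in LRIF1 KO, 94 in E147A and 49 in Y353C were under that unadjusted threshold. Of 242 genes, G137E had 7 and 20 at days 5 and 7, and K518E had 31 and 12. The 9 are therefore not read as particular to the neighbours. All contrasts but that of SMCHD1 KO share the Halo-SMCHD1 libraries. Replicate libraries of a line come from 1 clone, so these tests measure the spread between differentiations of that clone.

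Among all genes, 0.803% were called in SMCHD1 KO against iXist-ChrX, and against Halo-SMCHD1 16.1% were called in E147A and 3.61% in Y353C at day 7. In LRIF1 KO 0% were called, in G137E 0% at day 5 and 0% at day 7, and in K518E 0.413% at day 5 and 0% at day 7. At an unadjusted p under 0.05, the contrasts with no call had 28 genes in LRIF1 KO, 7 and 20 in G137E at days 5 and 7 and 12 in K518E at day 7. The total over all genes and the 8 contrasts, 52 calls, rested on single libraries, since it was 14 without Halo-SMCHD1 day 7 replicate 1, 15 without the E147A library matched to its group only, and 100 without E147A replicate 1. With a fit of only the libraries compared it was 4. The neighbours had 0 calls in each of these fits.

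Nkap had the lowest unadjusted p. At day 7 it was at 0.198 and 0.173 in iXist-ChrX and at 0.275 and 0.356 in SMCHD1 KO, which did not overlap. Overlap between lines was not counted over all genes, so its absence does not set Nkap apart. The difference of Nkap was 0.98 ± 0.282 in log2 odds (SE; limma adjusted p = 0.174), with a median of 0.258 over all genes. On untransformed fractions the difference of Nkap was 0.13 and passed (limma adjusted p = 0.0454). In Halo-SMCHD1 Nkap was at 0.156, 0.186 and 0.177. It was at 0.219 and 0.273 in E147A, 0.234 and 0.312 in Y353C and 0.266 and 0.234 in LRIF1 KO, all above Halo-SMCHD1. The median difference over all genes was also above 0, at 0.869 in E147A, 0.522 in Y353C and 0.256 in LRIF1 KO in log2 odds. That of Nkap was 0.611 in E147A, below the median, and 0.801 in Y353C and 0.645 in LRIF1 KO, above it. In G137E Nkap was at 0.17, 0.131 and 0.181, and in K518E at 0.191 and 0.19.

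Dock11 was higher than in Halo-SMCHD1 in some of these lines. Its ratio was 0.0568, 0.0392 and 0.0935 in Halo-SMCHD1. It was 0.11 and 0.104 in Y353C, 0.0946 and 0.119 in LRIF1 KO, and 0.083 and 0.115 in E147A. Of these lines only E147A overlapped Halo-SMCHD1. Overlap between lines was not counted over all genes, so its absence does not set Dock11 apart. The differences of Y353C and LRIF1 KO from Halo-SMCHD1 were 0.82 ± 0.342 and 0.80 ± 0.342 in log2 odds (SE; limma adjusted p = 0.203 and 0.402). The medians over all genes were 0.522 and 0.256. In E147A the difference of Dock11 was 0.686, below the median of 0.869 over all genes. With a replicate block the Dock11 difference of Y353C was 1.09 and passed (limma adjusted p = 0.0395). The differences of Upf3b had the opposite sign, at -0.167 in SMCHD1 KO, -0.0651 in LRIF1 KO, -0.477 in E147A, -0.592 in Y353C and -1.09 in G137E at day 7, with limma adjusted p from 0.543 to 0.997.

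Slc25a5 was at 0.408 and 0.574 in iXist-ChrX and at 0.534 and 0.529 in SMCHD1 KO, a difference of 0.23 ± 0.982 (SE; limma adjusted p = 0.997). Beside them, Ube2a and C330007P06Rik stayed at 0.996 or above in every day 7 library.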

How the data were processed

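ChrRNA-seq was measured in 36 libraries. Reads left after rRNA removal (bowtie2 2.3.2) were placed by the authors on mm10, with SNPs masked, using STAR (2.4.2a or 2.7.9a), and only uniquely placed reads were kept and sorted (samtools 1.16.1). SNPsplit 0.4.0dev assigned them to 129S or Cast, and featureCounts summed them by strand over exons plus introns. Genes needed 10 or more reads over SNPs. The deposited values are fractions, Xi/(Xi+Xa), per gene and library, with no pooling. Read counts were not used here, so depth and counting error are unknown.

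Groups came from the sample labels. Columns of iXist-ChrX carry a clone name that the labels lack and were matched by day and replicate number, and 1 E147A library at day 7 was matched to its group only. Reads of iXist-ChrX replicate 1 were rebuilt from alignments, per the labels. Only X-linked genes are listed, so neither the cell type nor the autosomal Smchd1 and Lrif1 could be checked.

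Members, lists and tests were chosen with earlier results of these data known. Genes named were the pair, genes starting within 1 Mb, the 3 genes nearest in ratio, the 3 highest before induction, Xist, and list members. Stage steps were tested with limma 3.58.1 in R 4.3.3, paired by line in the larger table, day 7 libraries averaged per line; line contrasts used all day 5 and day 7 libraries of a table without a replicate block. G137E and K518E were tested in the smaller table. The pseudocount was 0.01. Transcript copies were searched with BLAST 2.17.0. Alternatives were other pseudocounts, untransformed fractions, windows, filters, tables, left-out libraries and a replicate block.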

Additional observations from a re-analysis of the deposited data

How the results depend on the processing

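The levels of C330007P06Rik, and of Ube2a before induction, moved by less than the SD between libraries under every alternative run. Ube2a was at 1 in all libraries of the later stages, so its level there could not move. The neighbour median moved with dox for 24 h to 0.254 with a window of 2 Mb, and to 0.155 at day 5 and 0.131 at day 7 when the mean over genes replaced the median. The other 6 neighbours besides Slc25a5 fell at both steps under every setting in which they were tested. Slc25a5 changed sign in the table with K518E, to 0.0374 with dox (limma adjusted p = 0.878) and -0.122 at day 7 (0.558), and without Y353C to -0.0928 at day 7 (0.703). Leaving out 1 line at a time, 6 to 7 neighbours were called with dox and 6 at day 7, the 7th being Slc25a5 without LRIF1 KO, and the change of Slc25a5 ran from -0.275 to -0.13 with dox and from -0.0928 to 0.338 at day 7. In line contrasts the count of neighbours called was 0 and became 1 with untransformed fractions (Nkap in SMCHD1 KO, higher by 0.13, limma adjusted p = 0.0454) and 1 with a replicate block (Dock11 in Y353C, limma adjusted p = 0.0395). Over all genes 52 calls were made in the 8 contrasts, 28 with a pseudocount of 0.001, 23 with the block, 4 with only the libraries compared, and 14 to 100 leaving out 1 library. Whether replicate numbers pair the libraries was not settled. Deviations from the group mean correlated over 0.1 in 10 of 33 same-number and 12 of 52 unlike-number pairs of libraries in the larger table. In the smaller these were 3 of 13 and 2 of 20. Most groups hold 2 libraries, whose deviations mirror each other, so these counts cannot decide it. Depth is unknown, so ratios of 0 or 1 carry no limit, and with 2 or 3 libraries per line a missed call does not show that lines act alike.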
